A study of Mus musculus with 31 samples.

Results

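The p53 pathway was examined through 10 genes in mouse Ba/F3 lymphoid cells that express RPL10, a protein of the large ribosomal subunit, in WT form or with the R98S change found in T-cell leukemia. The genes were chosen by symbol and comprise Trp53, its inhibitors Mdm2 and Mdm4, and the targets Cdkn1a, Btg2, Ccng1, Sesn1, Trp53inp1, Phlda3 and Zmat3. Each symbol had a single row in both gene tables of the series, which list 41255 symbols, and all 10 genes passed the filter on low values in both tables.

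p53 is a transcription factor that arrests or kills cells under stress. MDM2 is a ubiquitin ligase that marks p53 for degradation, MDM4 is its partner and blocks p53 activity, and Mdm2 is itself a p53 target, which closes a feedback loop. When ribosome assembly is disturbed, free ribosomal proteins RPL5 and RPL11 can bind MDM2 together with 5S rRNA and release p53, so p53 target genes are widely read as a sign of ribosomal stress. p53 is regulated mainly at the level of the protein, which was not measured in these libraries.

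Ba/F3 cells depend on interleukin-3 and come from a murine bone marrow line. In all clones the endogenous mouse Rpl10 had been knocked down with an shRNA, and human RPL10 WT or R98S was expressed from a retroviral vector. Each genotype was represented by 3 monoclonal lines, R98S clones 11, 13 and 35 and WT clones 28, 29 and 36, and each culture carries a replicate number from 1 to 3. Total mRNA was sequenced in 9 R98S and 8 WT libraries, and polysomal RNA, the pooled gradient fractions of transcripts that carried 2 or more ribosomes, in 8 R98S and 6 WT libraries. The polysomal libraries were paired with total mRNA of the same cultures, which left WT clone 28 number 1, WT clone 36 number 2 and R98S clone 11 number 2 with total mRNA alone. A total mRNA library of WT clone 36 number 1, which the study excluded since it clustered with R98S, was not analysed here, so total mRNA comparisons are conditional on that exclusion. Cultures of a clone share its single founder cell, so p-values over libraries also measure spread within clones, and comparisons of the 3 clone means of each genotype are given beside them.

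Reads per library ranged from 8831180 to 22059792. The leading principal component separated the genotypes in both tables, with R98S clones 13 and 35 of number 2 nearest to WT in total mRNA. The receptor genes Csf2rb, Csf2rb2 and Il3ra, the pan-leukocyte gene Ptprc and the B-lineage genes Cd79a and Cd79b were detected in all libraries, whereas the B-lineage genes Ebf1, Pax5, Vpreb1 and Igll1 did not exceed 5.87 normalized reads in any. The summed level of the Ba/F3 markers, mostly Csf2rb and Csf2rb2, ranged between 110175 and 222357 in R98S and between 56843 and 102239 in WT total mRNA, and 44855 to 131013 and 23402 to 70390 in polysomal RNA. The summed level of 14 markers of other cell types ranged between 19.3 and 763 in R98S and between 172 and 597 in WT total mRNA, and 18.7 to 58.4 and 47.0 to 970 in polysomal RNA. The sums were carried mainly by the globin gene Hba-a1, at up to 418 in total mRNA and 863 in polysomal RNA of WT and 139 and 19.1 in R98S, and by the myeloid gene Mpo, at up to 199 and 441 in WT and 342 and 35.0 in R98S. The T-cell gene Cd3g reached 177, the globin gene Hbb-bs 167 and the myeloid gene Lyz2 147, while Epcam, Dcn, Cd8a and Col1a2 stayed below 3 normalized reads. The part of these markers in the results was not tested. Rpl10 did not check the genotype labels, since reads of the human transcript can align to the mouse gene and the knockdown is common to all clones. Its log2 difference was -0.08 in total mRNA and -1.20 in polysomal RNA (limma, adjusted p = 0.89 and 0.049).

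Promoter sequences are shown because p53 acts by binding DNA near its targets. RefSeq promoter windows (build GRCm38.p6), searched over the 250 bases before each annotated start, were found for 8 of the 10 genes, in 11 windows. Trp53inp1 and Zmat3 had no entry. The p53 consensus decamer, which reads the same on both strands and of which a pair forms a full response element, was present in 5 of the 11 windows, each of a different gene, against 7.13% of all 32851 windows. A pair of decamers at most 13 bases apart was found in Cdkn1a only among these genes, against 0.0639% of all windows. Decamers are in capitals, with 20 bases on each side, each read 5′ to 3′ on the strand of its gene.
Trp53, chr11:69580264-69580313, plus strand: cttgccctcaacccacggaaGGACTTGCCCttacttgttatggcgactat
Mdm2, chr10:117710915-117710964, minus strand: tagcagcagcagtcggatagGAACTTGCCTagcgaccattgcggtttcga
Cdkn1a, chr17:29090886-29090957, plus strand: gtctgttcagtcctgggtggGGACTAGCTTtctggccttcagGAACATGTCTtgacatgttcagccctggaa
Ccng1, chr11:40755442-40755491, minus strand: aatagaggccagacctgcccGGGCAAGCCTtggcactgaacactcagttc
Sesn1, chr10:41887246-41887295, plus strand: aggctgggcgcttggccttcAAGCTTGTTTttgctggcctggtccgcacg
The decamer begins 75 bases before the start in Trp53, 186 in Mdm2, 185 in Ccng1 and 173 in Sesn1. In Cdkn1a the decamers begin 73 and 51 bases before the start and are separated by 12 bases. Each distance is to the annotated start of the window that holds the decamer. Sesn1 and Cdkn1a each had another window, at chr10:41810324-41810623 and chr17:29093519-29093818, without a decamer in its searched bases. No decamer was found in the windows of Mdm4, Phlda3 and Btg2. A match describes these letters only, and p53 binding was not measured. On build GRCm38 the genes, counted over their exons, lie with Trp53 at chr11:69580359-69591873, Mdm2 at chr10:117688875-117710758, Mdm4 at chr1:132959484-133030561, Cdkn1a at chr17:29090976-29100727, Ccng1 at chr11:40748552-40755311, Trp53inp1 at chr4:11156431-11174379, Zmat3 at chr3:32334792-32366014, Phlda3 at chr1:135766119-135769136, Sesn1 at chr10:41809935-41908424, Btg2 at chr1:134075170-134079120 and Rpl10 at chrX:74270812-74273135.

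In total mRNA, the question was whether R98S cells hold more transcripts of p53 and its targets. Trp53 and Zmat3 were upregulated in R98S and no member was downregulated, so 2 of 10 genes (20%) passed an adjusted p under 0.1 on the higher side. Of all 11133 genes tested, 14.5% were called higher and 15.8% lower, so the count among the members lies near that background. No gene had all R98S libraries above all WT libraries, against 2.07% of all genes. The median log2 difference of the 10 genes was 0.09, against 0.0035 over all genes tested. Fold changes are R98S minus WT on the log2(normalized count + 1) scale, and in bulk RNA more cells expressing a gene and more RNA per cell cannot be told apart.

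Trp53 itself ranged between 2013 and 4020 in R98S with a median of 2967, and between 1720 and 2798 in WT with a median of 2087. R98S libraries averaged 2982 ± 554 (SD, n = 9) and WT libraries 2229 ± 395 (SD, n = 8), a log2 difference of 0.42 ± 0.13 (SE; limma, adjusted p = 0.023). The groups overlapped, with 6 of 9 R98S libraries above every WT library. The means of the 3 R98S clones, 3226, 3092 and 2628, lay above those of the 3 WT clones, 2255, 2256 and 2148. A two-sided exact permutation test on the clone means gave p = 0.1, the smallest value that 3 against 3 allows. Across all genes, 19.9% had R98S clone means above those of WT. Within numbers 1, 2 and 3 the log2 difference was 0.29, 0.39 and 0.46, and none of these passed the threshold alone. The call was also lost without R98S clone 11 (limma, adjusted p = 0.15) and without the cultures of number 3 (0.20).

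Zmat3 encodes a zinc finger protein that binds RNA and acts in splicing. Its total mRNA ranged between 966 and 3549 in R98S with a median of 1997, and between 729 and 2399 in WT with a median of 888. The log2 difference was 0.72 ± 0.28 (SE; limma, adjusted p = 0.076). The clones of each genotype were unlike each other, with means of 2358 and 2382 in R98S clones 11 and 13 but 1134 in clone 35, and of 937 and 796 in WT clones 28 and 29 but 2252 in clone 36. The call did not hold for clone means (limma, adjusted p = 0.33) or without a filter on low values (0.11). It was also lost when any library of WT clones 28 or 29, any of R98S clone 11, or R98S clone 13 number 1 or 3 was left out, with an adjusted p between 0.11 and 0.13, or when the whole of number 1 or 3, of R98S clone 11 or 13 or of WT clone 28 or 29 was left out (0.19 to 0.37). Without WT clone 36 the log2 difference was 1.06 (limma, adjusted p = 0.0060). The within-number log2 differences were 1.08, 0.37 and 0.85.

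The inhibitors of p53 did not pass the test in total mRNA. Mdm2 ranged between 1072 and 2822 in R98S and between 985 and 2343 in WT, with medians of 1329 and 1333, and its log2 difference was -0.04 ± 0.20 (SE; limma, adjusted p = 0.90). Mdm4 ranged between 1789 and 5375 in R98S and between 1871 and 5316 in WT, with a log2 difference of -0.03 ± 0.22 (limma, adjusted p = 0.94). The highest values of both genes came from the same 3 libraries, R98S clone 13 number 3 and WT clone 36 numbers 2 and 3.

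Among the antiproliferative targets, Cdkn1a, which encodes the cyclin-dependent kinase inhibitor p21, ranged between 2215 and 6369 in R98S with a median of 2690, and between 2185 and 7793 in WT with a median of 3560. The log2 difference was -0.30 ± 0.26 (SE; limma, adjusted p = 0.43), and it moved to 0.0043 without WT clone 36. Ccng1, which encodes cyclin G1, a partner of the phosphatase PP2A, ranged between 4269 and 14010 in R98S with a median of 5060, and between 3269 and 12049 in WT with a median of 3700. Its log2 difference of 0.41 ± 0.26 (SE; limma, adjusted p = 0.28) missed the threshold. Without the library of WT clone 36 number 3 it was 0.61 (limma, adjusted p = 0.044), and without WT clone 36 altogether 0.69 (0.033). Btg2, an antiproliferative factor that promotes shortening of mRNA poly(A) tails, varied most, between 196 and 1357 in R98S and between 56.0 and 2243 in WT, with a log2 difference of 0.20 ± 0.56 (limma, adjusted p = 0.83).

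The other stress targets did not pass the test in total mRNA either. Trp53inp1, which encodes a nuclear protein that cooperates with p53 in cell death and autophagy, ranged between 791 and 2420 in R98S and between 193 and 2415 in WT (log2 difference 0.33 ± 0.39 SE; limma, adjusted p = 0.58). Sesn1, an inhibitor of mTORC1 signaling, ranged between 621 and 1036 in R98S and between 608 and 1095 in WT (-0.06 ± 0.12; limma, adjusted p = 0.76). Phlda3, a repressor of AKT, was at 187 to 465 in R98S and 274 to 748 in WT (-0.36 ± 0.21; limma, adjusted p = 0.24). Without WT clone 29 this gene passed on the lower side in R98S, with a log2 difference of -0.67 (adjusted p = 0.045).

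**Figure D1:**
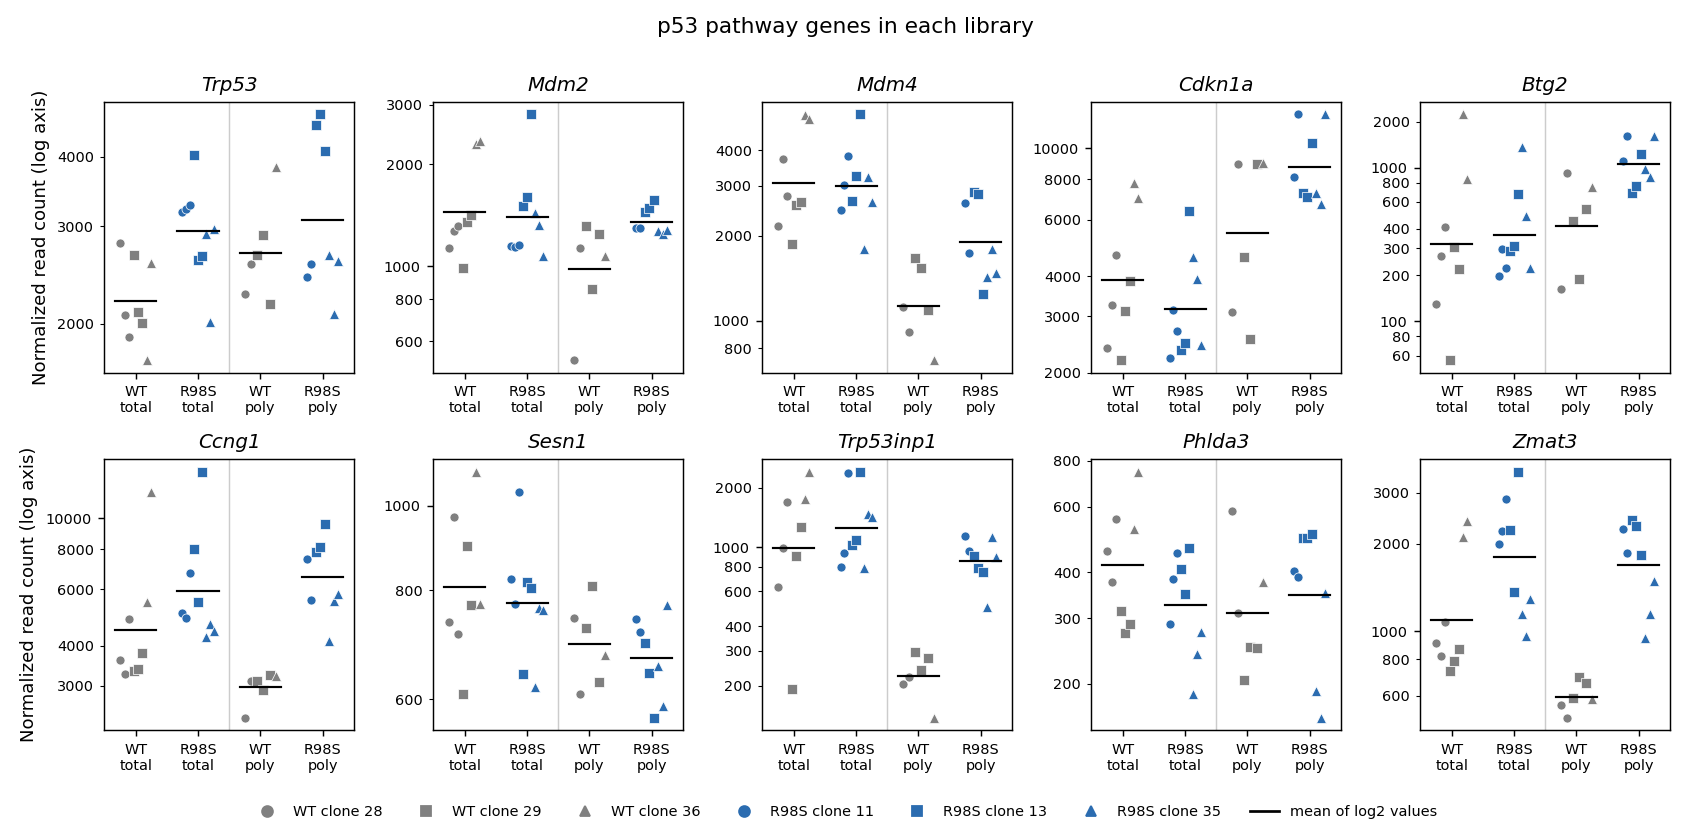
Normalized read count (log axis) of each of the 10 genes in each library, by genotype and RNA fraction, with 9 R98S and 8 WT total mRNA and 8 R98S and 6 WT polysomal libraries. Symbols give the clone and lines the mean of the log2 values. In polysomal RNA all R98S libraries lie above all WT libraries for Ccng1, Trp53inp1 and Zmat3, while in total mRNA the genotypes overlap for all 10 genes.

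A few total mRNA libraries of both genotypes were high or low for most of the targets. WT clone 36 number 3 was among the 3 highest of the 17 libraries for 8 of the 10 genes, and WT clone 36 number 2 and R98S clone 13 number 3 for 6 genes each. Averaged over the 9 genes other than Trp53, these libraries lay 0.92, 0.90 and 0.93 log2 units above the WT mean, in that order. The remaining libraries lay between -0.98, in WT clone 29 number 1, and 0.30, in R98S clone 11 number 3. WT clone 29 number 1 was among the 3 lowest for 8 genes. Leaving out WT clone 36 together with R98S clone 13 number 3, which was chosen after the data were seen, gave 3 called genes, all higher in R98S, where 11.6% of all genes were called higher, with Ccng1 at a log2 difference of 0.54 (limma, adjusted p = 0.016) beside Trp53 at 0.41 (0.047) and Zmat3 at 0.94 (0.0070). Within number 1, which has no library of WT clone 36, all 3 R98S libraries lay above both WT libraries for 6 genes, namely Trp53, Mdm2, Ccng1, Btg2, Trp53inp1 and Zmat3, against 19.6% of all genes. These WT libraries include clone 29 number 1, the low library named above. The same held for no gene within number 2, against 12.5% of all genes, and for Trp53 alone within number 3, against 12%.

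**Figure D2:**
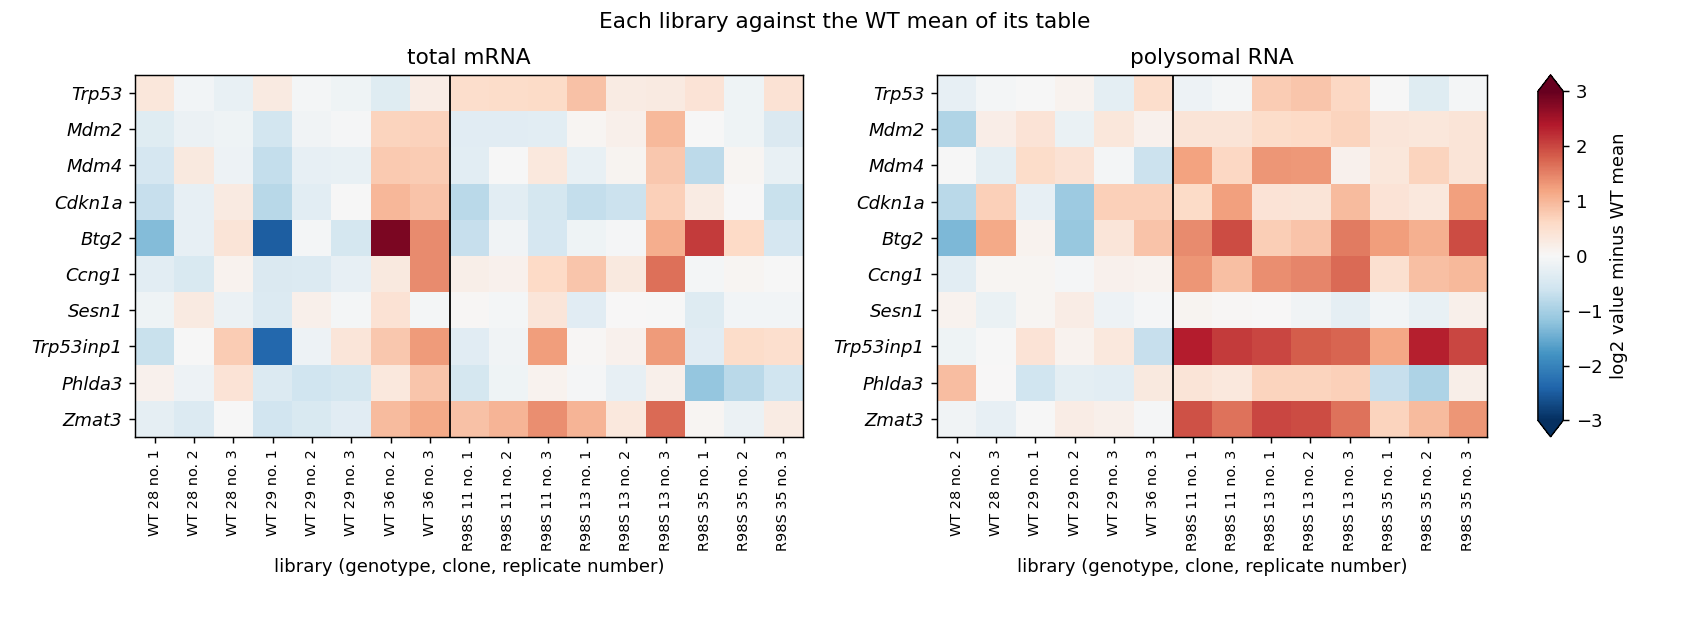
Log2 normalized count of each gene minus the WT mean of its table, for the 17 total mRNA libraries (left) and 14 polysomal libraries (right), ordered by genotype, clone and replicate number. Red is above and blue below the WT mean, and the scale is capped at 3. In total mRNA, WT clone 36 and R98S clone 13 number 3 share a red column, whereas in polysomal RNA every R98S library is redder than every WT library for Ccng1, Trp53inp1 and Zmat3.

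On polysomes, the same question was asked of transcripts engaged by ribosomes. Of the 10 genes, 5 (50%) were upregulated in R98S, namely Trp53inp1, Zmat3, Btg2, Ccng1 and Mdm4, and none was downregulated, where 7.66% of the 10707 genes tested were called higher and 5.87% lower. Trp53 was not among them. All 8 R98S libraries lay above all 6 WT libraries for 3 of the 10 genes, against 3.04% of all genes, and the clone means did so for 6 genes, against 13.8%. On polysomes the mean of WT clone 36 is a single library, of number 3, and those of WT clone 28 and R98S clone 11 rest on 2 each. The median log2 difference of the 10 genes was 0.72, against -0.02 over all genes tested. The polysomal table was normalized on its own, so a difference there is relative to the average polysomal gene.

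Trp53inp1 showed the largest difference of the 10 genes. Polysomal Trp53inp1 ranged between 502 and 1140 in R98S with a median of 898, and between 137 and 295 in WT with a median of 231. The groups were far apart, at 883 ± 209 (SD, n = 8) in R98S and 229 ± 56.3 (SD, n = 6) in WT, a 3.85-fold difference (log2 1.94 ± 0.21 SE; limma, adjusted p = 1.5e-05). The clone means were 1049, 813 and 843 in R98S clones 11, 13 and 35 and 212, 271 and 137 in WT clones 28, 29 and 36. The log2 difference was 1.44, 2.09 and 2.08 within numbers 1, 2 and 3, of which number 1 holds a single WT library.

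Polysomal Zmat3 ranged between 951 and 2412 in R98S with a median of 1843, and between 504 and 696 in WT with a median of 588. The difference was 2.85-fold (log2 1.51 ± 0.21 SE; limma, adjusted p = 1.9e-04), and every R98S library exceeded every WT library. R98S clone 35 again had the lowest mean of the mutant clones, 1198 against 2049 in clone 11 and 2184 in clone 13. Polysomal Ccng1 ranged between 4159 and 9604 in R98S with a median of 6660, and between 2385 and 3241 in WT with a median of 3099. Its difference was 2.20-fold (log2 1.14 ± 0.19 SE; limma, adjusted p = 7.4e-04), again without overlap between the groups. Here too clone 35 was the lowest R98S clone, with a mean of 5174 against 6532 in clone 11 and 8534 in clone 13.

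Polysomal Btg2 ranged between 690 and 1616 in R98S with a median of 1051, and between 163 and 919 in WT with a median of 492, a 2.55-fold difference (log2 1.35 ± 0.37 SE; limma, adjusted p = 0.030). The libraries overlapped. The log2 difference was 1.02, 2.20 and 1.04 within numbers 1, 2 and 3, of which number 1 holds a single WT library. The call was lost without number 1 or 2, without R98S clone 11 or 35, or without WT clone 29, with an adjusted p between 0.10 and 0.16. Polysomal Mdm4 ranged between 1242 and 2842 in R98S with a median of 1765, and between 727 and 1671 in WT with a median of 1106 (log2 0.75 ± 0.24 SE; limma, adjusted p = 0.066). This call was the least stable, since leaving out R98S clone 11 number 1, R98S clone 13 number 1 or 2, or any WT library of number 3 raised the adjusted p to between 0.11 and 0.16, and leaving out any replicate number or any clone but R98S clone 35 and WT clone 29 raised it to between 0.12 and 0.21.

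Mdm2 and Cdkn1a differed on polysomes by 0.46 ± 0.19 and 0.69 ± 0.31 on the log2 scale and missed the threshold (limma, adjusted p = 0.15 and 0.21). Mdm2 ranged between 1247 and 1569 in R98S with a median of 1294, and between 528 and 1313 in WT with a median of 1105, so that the mutant libraries were closely grouped. Mdm2 passed without WT clone 29 number 1 (limma, adjusted p = 0.094) and without the libraries of number 3 (0.093). Without number 3 the log2 difference of Cdkn1a was 1.14 (limma, adjusted p = 0.0030). Cdkn1a ranged between 6722 and 12812 in R98S and between 2536 and 8976 in WT, and its level followed the replicate number in both genotypes. The 3 R98S libraries of number 3 had 10428 to 12812 and the 3 WT libraries of number 3 had 8937 to 8976, whereas the WT libraries of number 2 had 2536 and 3086. With the replicate number as a block, both genes were called, at an adjusted p of 0.055 for Mdm2 and 8.1e-04 for Cdkn1a (limma), so that 7 of the 10 genes passed on the higher side, against 15.2% of all genes in that fit. When clone was added to the block as a random effect the count was 6, where 11.5% of all genes were called higher, with Mdm2 at an adjusted p of 0.11 (limma). Quantile scaling, without the block, also called both genes, for a count of 7, where 6.97% of all genes were called higher.

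Trp53, Phlda3 and Sesn1 did not differ detectably on polysomes. Trp53 ranged between 2083 and 4776 in R98S and between 2172 and 3839 in WT (log2 0.20 ± 0.22 SE; limma, adjusted p = 0.69). The 3 libraries of R98S clone 13, at 4095 to 4776, were above all other polysomal libraries, while R98S clones 11 and 35 had means of 2497 and 2448, beside 2412 and 2576 in WT clones 28 and 29 and 3839 in the single library of WT clone 36. Phlda3 also differed between R98S clones, with a mean of 499 in clone 13, 396 in clone 11 and 235 in clone 35, and its genotype difference was 0.17 ± 0.30 (limma, adjusted p = 0.83). Sesn1 was the most even gene, at 572 to 770 in R98S and 608 to 809 in WT (-0.05 ± 0.13; limma, adjusted p = 0.88).

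**Figure D3:**
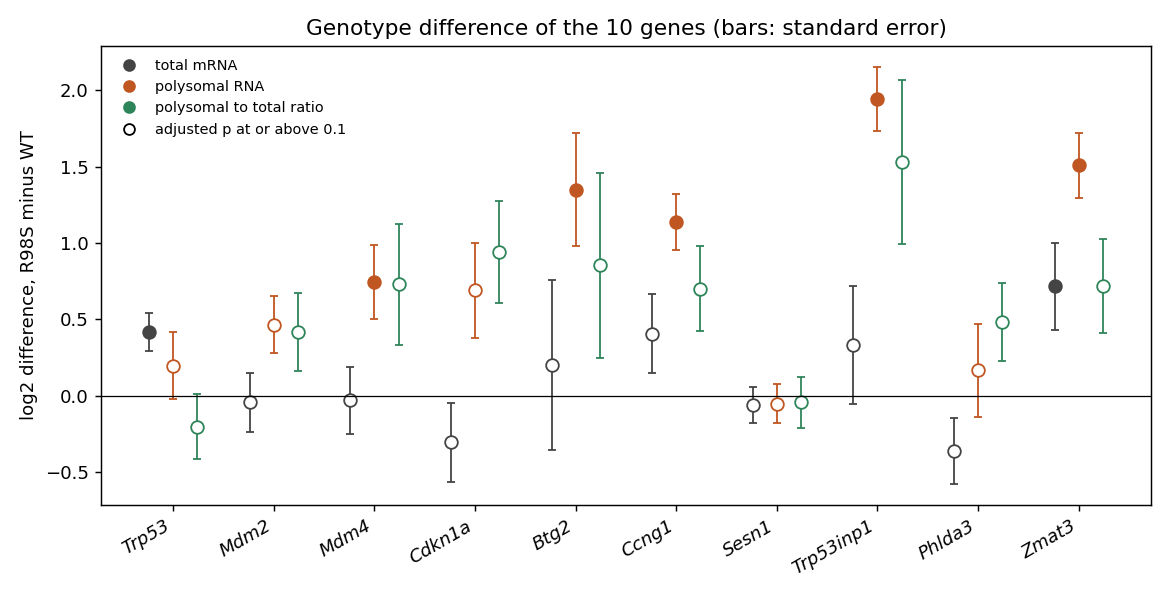
Log2 difference between R98S and WT for the 10 genes in total mRNA, polysomal RNA and the polysomal to total ratio, with standard errors. Filled points passed an adjusted p under 0.1, which applies to Trp53 and Zmat3 in total mRNA and to Mdm4, Btg2, Ccng1, Trp53inp1 and Zmat3 in polysomal RNA.

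Translational efficiency (TE), taken as the log2 polysomal minus the log2 total mRNA value of the same culture, was compared over 8 R98S and 6 WT cultures. None of the 10 genes passed the test after adjustment over 10627 genes (limma and edgeR, 0 calls each). At an unadjusted p under 0.05 there were 4, namely Trp53inp1, Cdkn1a, Ccng1 and Zmat3, where 5.96% of all genes reached that level. Of all genes tested, 0.0376% were called. The median difference of the 10 genes was 0.71, against 0.0062 over all genes. TE contains both fractions, so its values are not independent of the differences given for them.

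TE of Trp53inp1 ranged between -1.68 and 0.52 in R98S with a median of -0.56, and between -4.12 and 0.61 in WT with a median of -2.24, a difference of 1.53 ± 0.54 (SE; limma, adjusted p = 0.71). The WT culture at 0.61 was clone 29 number 1, in which Trp53inp1 total mRNA was the lowest of all libraries at 193. Without that culture the difference was 2.08 (limma, adjusted p = 0.065), and without WT clone 29 it was 2.50 (0.084). TE of Cdkn1a ranged between 0.67 and 2.39 in R98S and between -0.30 and 1.21 in WT, a difference of 0.94 ± 0.33 (limma, adjusted p = 0.72). TE of Ccng1 ranged between -0.54 and 0.58 in R98S and between -1.90 and -0.11 in WT, a difference of 0.70 ± 0.28 (limma, adjusted p = 0.75). TE of Zmat3 ranged between -0.96 and 0.76 in R98S and between -2.03 and -0.19 in WT, a difference of 0.72 ± 0.31 (limma, adjusted p = 0.79). In these 4 genes and Phlda3 the R98S clone means lay above those of WT, against 9.34% of all genes. WT clone 36 has a single culture here, which was the lowest WT value for Trp53inp1, Ccng1, Zmat3 and Phlda3 but not for Cdkn1a.

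The remaining differences in TE were 0.85 ± 0.61 for Btg2, 0.73 ± 0.40 for Mdm4, 0.48 ± 0.26 for Phlda3, 0.42 ± 0.26 for Mdm2, -0.04 ± 0.17 for Sesn1 and -0.20 ± 0.21 for Trp53 (SE, limma, adjusted p between 0.84 and 0.98). Mdm2, Btg2 and Trp53inp1 had R98S cultures below WT within number 1 and above WT within number 2, as did 6.54% of all genes. The cultures of WT clone 36 number 3 and R98S clone 13 number 3 had high total mRNA of several targets, and their polysomal RNA differed. Ccng1 was at 12049 in total and 3223 in polysomal RNA of WT clone 36 number 3, and at 14010 and 9604 in R98S clone 13 number 3. Averaged over the 9 genes other than Trp53, these cultures lay 0.92 log2 units below and 0.02 below the WT mean of TE. Without them the TE differences of Ccng1 and Zmat3 were 0.53 and 0.59, and still no gene of the 10 was called.

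**Figure D4:**
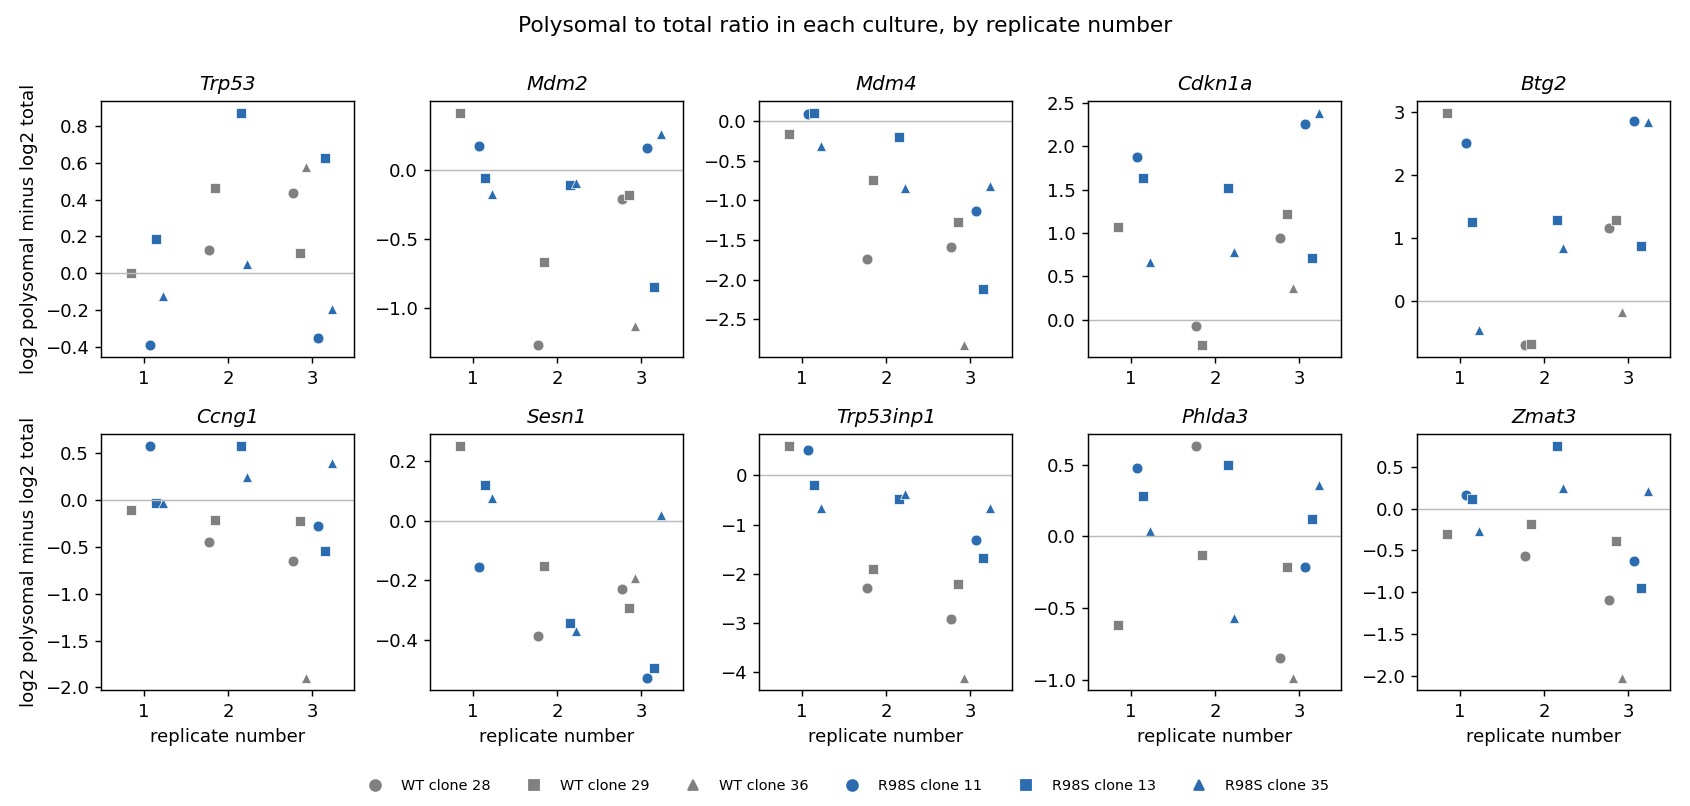
Polysomal to total ratio (log2) of each gene in the 14 matched cultures, by replicate number, with genotype by colour and clone by symbol. Within number 2 both R98S cultures lie above both WT cultures for Mdm2, Cdkn1a, Btg2, Ccng1, Trp53inp1 and Zmat3, against 18.7% of all genes. The single WT culture of number 1 lies above all R98S cultures for Mdm2, Btg2, Sesn1 and Trp53inp1, against 28.2% of all genes. It lies below them for Ccng1, Zmat3 and Phlda3, for which no share of all genes was taken, so these genes are not read as a result.

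Levels of the genes were compared per kilobase of exon. In WT total mRNA, Ccng1 (1416 ± 845 normalized reads per kb; SD, n = 8) and Cdkn1a (1205 ± 586) stood highest and overlapped each other. Trp53 followed at 551 ± 97.5 and overlapped both Cdkn1a and the next gene, then Mdm2 at 298 ± 101 and Phlda3 at 284 ± 104, which overlapped. Mdm4, Sesn1, Btg2 and Trp53inp1 lay between 190 and 222 on the same scale with overlapping libraries, and Zmat3 was the lowest at 106 ± 57.2. In WT polysomal RNA the order began with Cdkn1a at 1740 ± 878 and Ccng1 at 853 ± 91.1, and Trp53inp1 was the lowest at 35.4 ± 8.70 (SD, n = 6), below every library of all other genes of the list except Zmat3. In R98S polysomal RNA, Trp53inp1 reached 136 ± 32.3 and lay next to Mdm4 at 135 ± 44.3.

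Further p53 targets were described from a list of 51 genes, of which 40 were tested in total mRNA and 38 in polysomal RNA. In total mRNA 5 (12.5%) were higher and 5 (12.5%) lower in R98S, near the 14.5% and 15.8% of all genes, and their median log2 difference was -0.02. The 5 higher calls became 0 without number 3, R98S clone 11 or WT clone 28, where 5.99%, 7.68% and 9.44% of all genes were called higher. They became 2 without number 1 (11.6%), 3 without number 2 (10.2%) or R98S clone 13 (12.9%), and 8 without WT clone 36 (11.8%). Single libraries moved them to between 3 and 7. The count was 3 without R98S clone 11 number 1 (12.1%), R98S clone 13 number 3 (13.5%), WT clone 28 number 3 (12.1%) or WT clone 29 number 2 (12.4%). It was 7 without WT clone 36 number 2 (12.6%). In polysomal RNA 7 (18.4%) were higher and 2 (5.26%) lower, against 7.66% and 5.87% of all genes, with a median of 0.26. The count of 7 lay between 2, without number 1, and 9, without number 3, when a library, clone or number was left out, and 3.62% and 9.52% of all genes were called higher in those fits. With the replicate block 13 were higher and 4 lower, where 15.2% and 15.7% of all genes were called higher and lower. Polysomal Ak1, a kinase that balances adenine nucleotides, ranged between 126 and 643 in R98S and between 30.7 and 77.2 in WT (log2 2.43 ± 0.35 SE; limma, adjusted p = 2.3e-04). Polysomal Lif, a cytokine, ranged between 939 and 2062 in R98S and between 269 and 1119 in WT (1.93 ± 0.29; limma, adjusted p = 3.5e-04). The exonuclease gene Aen and the lipase gene Abhd4 were higher in both fractions, at 0.68 and 0.74 in polysomal RNA (limma, adjusted p = 0.017 and 0.0058) and 0.92 and 0.41 in total mRNA (0.040 and 0.037). Eda2r encodes a death receptor of the TNF receptor family. Its total mRNA was at 0 to 32.7 in R98S and 29.8 to 277 in WT (limma, adjusted p = 0.0015). On polysomes it was at 0 to 7.31 in R98S and 7.32 to 42.0 in WT. Every R98S polysomal value lay below the filter of 10, so Eda2r entered that test through WT alone. Its lower call there, counted above, is not read as a result. Pml, which encodes the scaffold of PML nuclear bodies, fell by 1.04 in total mRNA (limma, adjusted p = 7.5e-05), and Ckap2, a spindle protein, fell by 0.66 in total mRNA and by 0.75 in polysomal RNA (limma, adjusted p = 1.2e-04 and 0.026). The classical targets Pmaip1, Perp and Gdf15 were below the filter, with at most 2.64 normalized reads in any library. In TE, 0 of 38 were called by limma and by edgeR, and 8 reached an unadjusted p under 0.05, against 5.96% of all genes.

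Of 41 regulators of p53, 39 were tested in each comparison. In total mRNA 2 (5.13%) were higher and 2 (5.13%) lower, against 14.5% and 15.8% of all genes, and in polysomal RNA 2 (5.13%) were higher and 1 (2.56%) lower, against 7.66% and 5.87%. With the replicate block the counts were 4 higher and 5 lower in total mRNA, where 18.5% and 19.9% of all genes were called, and 4 higher and 6 lower in polysomal RNA, where 15.2% and 15.7% were. In total mRNA the ubiquitin and SUMO ligase gene Topors and the deubiquitinase gene Otub1 were higher, and the ubiquitin ligase gene Huwe1 and the nucleolar gene Gltscr2 were lower, with log2 differences of 0.36, 0.31, -0.46 and -0.24 (limma, adjusted p = 0.0043, 0.088, 0.013 and 0.097). In polysomal RNA Cdkn2a and the nucleolin gene Ncl were higher, at 1.69 and 0.73 (limma, adjusted p = 0.037 and 0.093), and the deubiquitinase gene Usp10 was lower, at -0.50 (0.046). Among genes called on polysomes with the block alone were the kinase gene Hipk2, on the higher side, and the growth regulator Myc, on the lower side (limma, adjusted p = 0.044 and 0.024, against 0.12 and 0.13 without the block). Cdkn2a encodes p19Arf, an inhibitor of MDM2, together with p16Ink4a, and gene counts do not separate these products. Its polysomal values were 37.9 to 268 in R98S and 13.9 to 79.1 in WT. Rpl5 and Rpl11, the ribosomal proteins that bind MDM2, differed by -0.14 and -0.09 in total mRNA (limma, adjusted p = 0.44 and 0.35) and by -0.07 and -0.23 in polysomal RNA (0.90 and 0.83). In TE, 0 of 39 were called by limma and by edgeR, and 1 reached an unadjusted p under 0.05, against 5.96% of all genes. On omission of a library, clone or number, called regulators in total mRNA moved between 0 and 4 higher and 1 and 4 lower. In total mRNA 0 were higher without number 3 (5.99% of all genes) and 4 without WT clone 29 number 1 (17.4%). There 1 was lower without number 3 (6.03%), among other omissions, and 4 without R98S clone 13 (14.1%). On polysomes the counts moved between 0 and 4 higher and 0 and 5 lower. On polysomes the 2 higher calls became 0 without number 2, R98S clone 11, R98S clone 35 or WT clone 28 and 4 without WT clone 29 number 2, where between 4.61% and 7.2% of all genes were called higher. The count of 1 lower gene there became 0 without number 1, number 2, R98S clone 11 or R98S clone 35, where between 2.05% and 4.34% of all genes were called lower. It became 2 without WT clone 29 number 3 (5.31%), 3 without WT clone 28 number 2 (7.07%) and 5 without number 3 (9.51%). The calls of Otub1, Gltscr2 and Ncl were each lost when any of at least 8 single libraries was left out.

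Cell cycle genes that p53 lowers through p21 had the largest share of calls among the 4 lists in total mRNA. Of 35 genes, 25 (71.4%) were downregulated in R98S and none was upregulated, against 15.8% of all genes called lower, and the median log2 difference was -0.41. Cdk1, the mitotic kinase, ranged between 1541 and 2243 in R98S and between 2420 and 3324 in WT, so that all 9 R98S libraries lay below all WT libraries (log2 -0.57 ± 0.09 SE; limma, adjusted p = 1.6e-04). Kif23, a kinesin of cytokinesis, ranged between 1469 and 2437 in R98S and between 2631 and 4619 in WT (-0.78 ± 0.13; limma, adjusted p = 3.0e-04). The mitotic cyclin Ccnb2 (-0.60), the checkpoint kinase Ttk (-0.70) and the centromere protein gene Cenpe (-0.87) followed (limma, adjusted p = 9.6e-04, 0.0010 and 5.2e-04). The count was 9 without number 3 and 15 without R98S clone 11, where 6.03% and 9.34% of all genes were called lower. It was 2, 2 and 14 within numbers 1, 2 and 3, where 5.94%, 1.01% and 5.61% of all genes were, so the 2 genes of number 1 lie near the background. Cdkn1a total mRNA was not called in either direction in the same libraries.

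In polysomal RNA the same list had a median of -0.32. Of the 35 genes 1 (2.86%) was lower and 1 (2.86%) higher, below the 5.87% and 7.66% of all genes. They were the kinesin gene Kif11, at -0.66 (limma, adjusted p = 0.038), and the kinase gene Melk, at 0.71 (0.0058). With the replicate block 12 genes were lower and 1 higher, where 15.7% and 15.2% of all genes were called lower and higher. Without the block the count of 1 lower gene was 0 without R98S clone 11, R98S clone 13 or number 1, where 3.66%, 4.46% and 2.05% of all genes were called lower. It was 4 without R98S clone 13 number 3 (6.75%), 6 without WT clone 28 number 2 (7.07%) or without number 3 (9.51%), and 2 without WT clone 28 (4.91%), number 2 (4.34%), R98S clone 35 number 1 (4.89%) or any single library of WT clone 29 (5.31% to 5.84%). In TE, 0 of 35 were called by limma and by edgeR, with 3 at an unadjusted p under 0.05, near the 5.96% of all genes, and a median of 0.10.

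**Figure D5:**
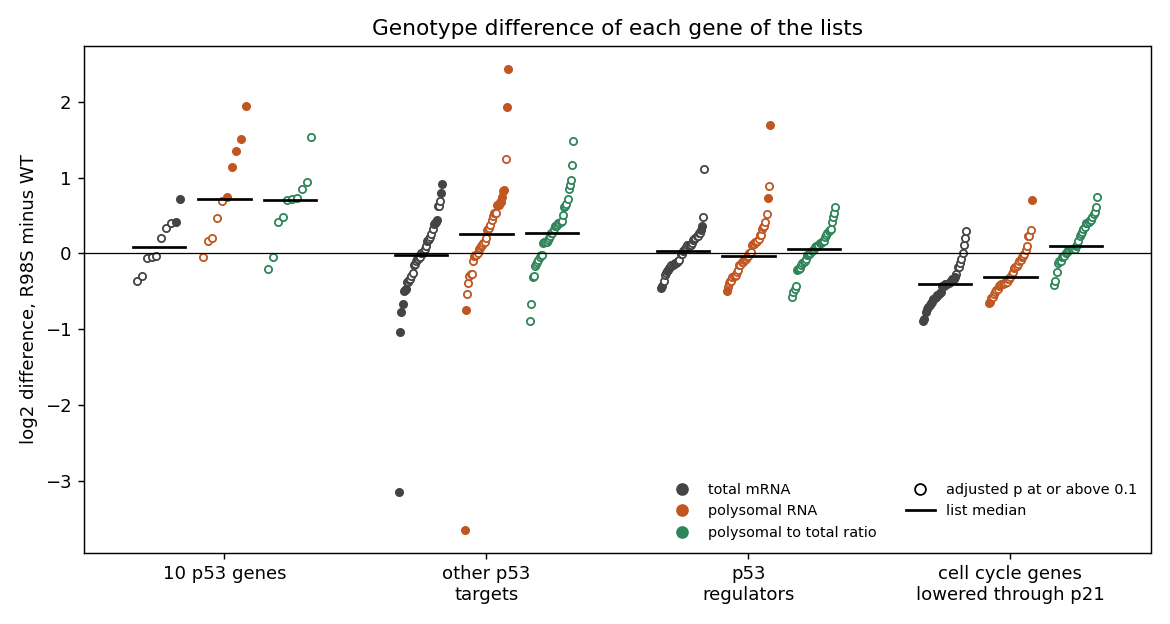
Log2 difference between R98S and WT for each gene of 4 lists, ranked within each column, for total mRNA, polysomal RNA and the polysomal to total ratio. Filled points passed an adjusted p under 0.1 and lines mark list medians. The cell cycle genes have a median of -0.41 in total mRNA, and the 10 p53 genes a median of 0.72 in polysomal RNA.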

How the data were processed

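The deposited tables hold a signal per gene and library, which the authors made by dividing exonic read counts by DESeq2 size factors within each table. Per the study's methods and the submitters' processing notes, stranded poly(A) libraries were trimmed, cleared of rRNA and tRNA reads with Bowtie2, aligned to mm10 with TopHat2 2.0.11, filtered at a mapping quality of 10 and counted with HTSeq. The annotation and strand setting are not given in the sources used here. Whole reads, within a tolerance of 0.001, were recovered for 100% of values. Positions follow GENCODE M21 on GRCm38. Of the 50-base windows of member transcripts, 3.95% in Trp53 (mostly shared with the pseudogene Trp53-ps), 7.31% in Mdm4 (mostly Mdm4-ps) and 8.49% in Cdkn1a (mostly an antisense gene) occur in other transcripts, so these counts are less certain.

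R98S was compared with WT by limma 3.58.1 (R 4.3.3) on log2(value + 1) for genes averaging 10 or more, with a variance trend. TE was tested likewise on the per-culture difference of log2 values. P values were two-sided and Benjamini-Hochberg adjusted over all genes of a comparison, and an adjusted p under 0.1 was called. The study used DESeq2 and, for TE, Babel, which was not run. The scripts were tested on simulated data. edgeR 4.0.16 and DESeq2 1.42.0 on recovered reads, other scalings, filters and pseudocounts, clone and number terms, and left-out libraries were alternatives. Members, lists and named genes (all 10 members, Rpl5, Rpl11, Rpl10 and up to 5 genes per list and comparison with the smallest adjusted p; Pmaip1, Perp, Gdf15, the total mRNA of Aen and Abhd4 and the polysomal RNA of Ckap2 are named beyond that, chosen after their values were seen) were chosen with earlier results of these data known. Replicate numbers pair the libraries, because the mean deviations of the genotypes from their own averages, taken over genes, correlated for each number (r = 0.62, 0.55 and 0.48 for numbers 1 to 3 of total mRNA, 0.70, 0.67 and 0.87 on polysomes, and 0.67, 0.54 and 0.81 for TE). No pair of libraries was alike within sampling noise, for which chi-square divided by genes would be 1. The lowest such value was 4.36, for numbers 1 and 2 of R98S clone 13 on polysomes. A marker of the Ba/F3 list is not reported here by itself.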

Additional observations from a re-analysis of the deposited data

Results flagged for a closer look

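Of 60 groups of cultures tested for a library far from the others, 6 were singled out, where chance gives about 3, or 1 in 20. In total mRNA, Mdm2 was highest in R98S clone 13 number 3 at 2822, and Ccng1 was highest among WT libraries in clone 36 number 3 at 12049. In WT polysomal RNA, Ccng1 was lowest in clone 28 number 2 at 2385, and leaving this library out left the polysomal call in place. In TE, Mdm2 was lowest among R98S cultures in clone 13 number 3 at -0.85, Ccng1 was lowest among WT cultures in clone 36 number 3 at -1.90, and Sesn1 was highest among WT cultures in clone 29 number 1 at 0.25.

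In TE, 3 genes had R98S cultures all below WT within number 1 and all above WT within number 2, a pattern found in 6.54% of all genes. The largest within-number differences were 0.86 for Mdm2 in number 2, 1.86 for Trp53inp1 in number 3 and, for Btg2, 1.88 in size, which was a difference of -1.88 in number 1. Number 1 holds 3 R98S cultures but only WT clone 29 on the other side, and the change of direction between numbers was not tested.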

How the results depend on the processing

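Each library held at least 8831180 reads, and low genes such as Eda2r rest on few of them. Each genotype has 3 clones and number 1 has a single WT library on polysomes, and p-values over libraries do not account for clones. Of the 10 genes on polysomes, Trp53inp1 and Ccng1 were called in all 39 alternatives with a test and Zmat3 in 38, the exception being number 2 alone (limma, adjusted p = 0.11). Where a cause for a change of call is not named, the cause was not tested. Number 1 alone gave values without a test on polysomes and in TE, where it holds 1 WT library. DESeq2 was not run for TE, and the restriction to matched cultures was applied to total mRNA only. No other alternative was left out. Alternatives that drop WT clone 36 with R98S clone 13 of number 3, drop R98S clones 13 and 35 of number 2, keep matched cultures, or join the replicate block with clone as a random effect were chosen after seeing the data.

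The count of p53 genes called in total mRNA was 2 and became 1 with no filter, with clone means, at a threshold of 0.05 and within number 1, and 0 within number 2 and within number 3. All genes called were 3200 with no filter, 3132 with clone means and 2402 at a threshold of 0.05. Leaving out a library, clone or number gave 0 to 3, where 5.99% to 17.4% of all genes were called higher and 6.03% to 17.4% lower. On polysomes the count of 5 lay between 3 and 6 on such omissions, where 3.62% to 9.52% of all genes were called higher. In TE the count lay between 0 and 1. All genes called in total mRNA fell from 3369 to 1366, 241 and 1047 within numbers 1, 2 and 3, where fewer libraries entered, and lay between 1338 and 3878 on omissions. On polysomes 1449 became 751 with clone means, 321 and 2234 within numbers 2 and 3, and 608 to 2037 on omissions. In TE the 4 calls became 2 with a pseudocount of 5, 1 with TMM, quantile scaling, edgeR, a threshold of 0.05, number 2 alone or without R98S clones 13 and 35 of number 2, 28 within number 3, 80 with clone as a random effect, 0 with clone means and without WT clone 36 and R98S clone 13 of number 3, and 0 to 65 on omissions.

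With the replicate block, 3307 genes were called on polysomes and 50 in TE, and 2381 and 59 with clone as a random effect added. Among the 10 genes the replicate block added Mdm2 and Cdkn1a on polysomes and changed no other call. With clone as a random effect added Mdm2 was lost again, leaving 6 genes. The log2 difference of Mdm4 in total mRNA turned from -0.03 to 0.028 with the block (0.012 with clone as a random effect). Mdm4 was called in total mRNA in none of the 44 alternatives.

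The following log2 differences, none of them called, turned sign. In total mRNA, Mdm2 was 0.36 within number 1, 0.057 without WT clone 36 and R98S clone 13 of number 3, 0.046 in matched cultures and -0.26 to 0.18 on omissions. Mdm4 was 0.041 with quantile scaling, 0.17 within number 1 and within number 3, 0.12 without WT clone 36 and R98S clone 13 of number 3, 0.018 in matched cultures and -0.27 to 0.23 on omissions. Cdkn1a was 0.33 within number 1 and -0.53 to 0.0043 on omissions. Trp53inp1 was -0.023 within number 2 and -0.10 to 0.68 on omissions. Sesn1 was 0.045 and 0.19 within numbers 1 and 3 and -0.20 to 0.10 on omissions. Btg2 was -0.031 with clone means, -0.68 and -0.39 within numbers 2 and 3, -0.31 with edgeR, -0.32 with DESeq2 and -0.53 to 0.91 on omissions. On polysomes, Phlda3 was -0.44 within number 2 and -0.23 to 0.56 on omissions, Sesn1 0.10 within number 3 and -0.19 to 0.067, and Trp53 -0.13 to 0.40. In TE, Trp53 was 0.17 and Phlda3 -0.29 within number 2, and Sesn1 was 0.0069 without R98S clones 13 and 35 of number 2 and -0.11 to 0.061 on omissions.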
